A study of Homo sapiens with 7 samples.

Results

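BRCA1, BRCA2, PALB2, BARD1, BRIP1, ATM, ATR, CHEK1 and CHEK2 are the BRCA and DNA damage response genes described here. They are 9 of the 26175 genes in the expression table, taken by gene symbol. A called gene transcription start site (TSS) was assigned to a gene when it lay on the strand of the gene inside its listed locus widened by 1000 nt at each end, and 6 of the 10391 called gene TSSs were found in this way. An antisense TSS belonged to a gene when it carried the identifier of the gene TSS.

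The data come from T47D/A1-2 cells, a line derived from the T47D human breast cancer line that overexpresses the rat glucocorticoid receptor and carries an integrated luciferase reporter behind a mouse mammary tumor virus promoter. The labels give the cells as T-47D. Cells were grown in 10% serum and then held for at least 24 h in 5% charcoal-stripped serum, and there was 1 growth condition. Start-seq, which reads the 5' ends of short capped RNAs and so places starts to the nucleotide, was run on 2 replicates, and replicate 1 gave the calls. RNA-seq of poly-A RNA was run on 3 replicates that were merged into 1 value per gene, in FPKM (RNA fragments scaled by transcript length and by the size of the library), and the nucleosome and open chromatin libraries were not used here. Because each gene has 1 merged value and each start is a position with score 0 and no read count, no value below has an error between replicates, no difference was tested, and the depth behind each call is unknown.

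Double-strand breaks are sensed by the kinases ATM and, through single-stranded DNA, ATR, which activate the checkpoint kinases CHEK2 and CHEK1. Repair by homologous recombination then uses BRCA1 with its RING partner BARD1, and PALB2 joins BRCA1 to BRCA2 at the processed DNA ends. Inherited loss of function in several of these genes raises the risk of breast cancer, the disease from which this line was made.

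The markers of a luminal breast cell were high in the RNA-seq table. All 8 luminal markers were at 44.1 FPKM or more, from 44.1 for the estrogen receptor gene ESR1 to 1142 for the keratin gene KRT8, with a median of 253. The basal keratin genes KRT5 and KRT14 were listed at 0, and the other basal markers were at 0.517 for TP63 and 3.20 for ACTA2. Of the mesenchymal markers, VIM was at 0.864 and COL1A1 at 8.82, and the leukocyte marker PTPRC was at 0.0208. T47D is known as a luminal line, and the luminal markers were all far above the others.

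The start sites themselves are shown first, because the calls are single nucleotides. The letters around them were read from the reference genome and not from these cells. Each line gives 30 bases of hg19, 5' to 3' on the strand of the start, from 20 nt upstream, and the capitals mark the base before the start (-1) and the start itself (+1).
BRCA2 gene TSS, chr13:32889597-32889626, plus strand: cacgtggccagcgcgggctTGtggcgcgag
PALB2 gene TSS, chr16:23652627-23652656, minus strand: ttggccggagtttagggcgCGcttggcccg
BARD1 gene TSS, chr2:215673731-215673760, minus strand: tgctttccgggagctgtggCGaattgggct
ATM gene TSS, chr11:108093766-108093795, plus strand: acgcagggtttgaaccggaAGcgggagtag
ATR gene TSS, chr3:142297611-142297640, minus strand: gctccgtcgggcgccgcgcTCttccggcag
CHEK2 gene TSS, chr22:29137792-29137821, minus strand: caggtttagcgccactctgCTggctgaggc

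The usual initiator of RNA polymerase II has a pyrimidine at -1 and a purine at +1. BRCA2, PALB2 and BARD1 had such a pair, which is 3 of 6 member gene TSSs beside 66.1% of all 10391. ATM had purines at both positions, and ATR and CHEK2 had pyrimidines at both. The fuller initiator CANW, in which the start is the A and W is A or T, was at 0 of 6 member starts beside 18.8% of all starts.

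All 9 genes had an RNA level of 1 FPKM or more, which was reached by 46.9% of the listed genes. Their levels ran from 2.28 for BRCA2 to 35.5 for CHEK1, a 15.6-fold range, with a median of 11.8 FPKM. The median over all listed genes was 0.528, and the members' median stood at percentile 74.1 of the whole table. Among the 11070 genes that had a called gene TSS the median was 13.5 FPKM, which is above the members' median. A call in the widened loci of several genes was counted for each, so these genes outnumber the 10391 called gene TSSs. The members were thus above most listed genes and close to the middle of the genes with a called start.

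Of the 2 apical kinases, ATR, which responds to stalled replication forks, was at 11.7 FPKM. ATM, which responds to double-strand breaks, was at 3.71 FPKM. ATR was thus 3.15 times as high as ATM. Of the 2 effector kinases, CHEK1, which acts chiefly below ATR, was at 35.5 FPKM. CHEK2, which acts chiefly below ATM, was at 21.9 FPKM. The ratio of CHEK1 to CHEK2 was 1.62, so that in each pair the gene of the ATR branch had the higher level.

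CHEK2 is a gene with many pseudogenes in the genome. The annotation holds 7 CHEK2 pseudogenes, and 1 of them, CHEK2P2, was in the expression table, at 0.0357 FPKM. How reads shared with these copies were divided is not given in the sources used here, and the CHEK2 level is uncertain to that extent. The annotation also holds 1 BRCA1 pseudogene, which was not analysed here.

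In the BRCA1 arm, BRCA1, a ubiquitin ligase subunit and scaffold, was at 18.6 FPKM. BARD1, with which it forms the ligase, was at 11.8 FPKM. BRIP1, a helicase bound by the BRCT repeats of BRCA1, was at 3.86 FPKM. BRCA1 was thus 1.58 times as high as BARD1 and 4.83 times as high as BRIP1.

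BRCA2 had the lowest level of the 9 genes, at 2.28 FPKM and percentile 58.0. PALB2, the protein that holds BRCA2 in the nucleus and links it to BRCA1, was at 11.8 FPKM, 5.19 times the BRCA2 level. BRCA1 was 8.16 times as high as BRCA2. The order of the 9 genes was CHEK1, CHEK2, BRCA1, PALB2, BARD1, ATR, BRIP1, ATM and BRCA2. PALB2, BARD1 and ATR had nearly equal values (11.8, 11.8 and 11.7), as did BRIP1 and ATM (3.86 and 3.71). With 1 value per gene no neighbours in this order could be told apart.

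A gene TSS was called for 6 of the 9 genes. Over all listed genes of known strand, a call was found for 79.9% of those at 1 FPKM or more and for 87.9% of those at 10 FPKM or more. These shares count a call for every gene whose widened locus holds it. The genes without a call were BRCA1, BRIP1 and CHEK1, and the median level was 18.6 FPKM without a call and 11.8 with one. Of the 6 members at 10 FPKM or more, 4 had a call. BRCA2 and ATM had a call at 2.28 and 3.71 FPKM, and CHEK1 had none at 35.5.

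The call lists do not show how many reads lay at the starts without a call. Around the annotated start of BRCA1, at position 41277381 on chromosome 17, the closest called gene TSS was 45861 nt away, at NBR1. The closest to the BRIP1 start, at position 59940889 on the same chromosome, was 63896 nt away, at INTS2. For CHEK1, with its start at position 125495058 on chromosome 11, the closest was 32296 nt away, at STT3A. Antisense starts were looked for only around called gene TSSs, and none lay nearer than 32705 nt to any of these starts.

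The Start-seq reads that gave the calls were kept only when they aligned to 1 place. Every 30-nt word beginning within 100 nt of each annotated start was counted in the genome on both strands. All 201 words occurred once at each of the 9 genes, the 3 without a call included. Near copies and the rest of the search windows were not counted, and the part of repeated sequence in the missing calls was not tested. The base composition around these starts differed between them: within 250 nt the GC content was 56.9% at BRCA1, 55.9% at BRIP1 and 45.7% at CHEK1. At the annotated starts of the other genes it lay between 55.7% for CHEK2 and 71.5% for BARD1. The part of GC content in the missing calls was not tested.

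BRCA2 was called at position 32889617 on the plus strand of chromosome 13, which is 28 nt upstream of the annotated canonical start. It had an upstream antisense TSS (uaTSS) 43 nt away. It was also the 1 gene of the 6 with a downstream antisense TSS (daTSS), which lay 299 nt into the gene, in intron 1. Over all genes the median distance was 200 nt to the uaTSS (n = 5519) and 507 nt to the daTSS (n = 2956). The BRCA2 distances stood at percentiles 3.33 and 23.6 of these, so both antisense starts lay closer to the gene TSS than was usual. The sequence between the gene TSS and the uaTSS is short enough to be read whole, and both antisense starts are given on their own strand with -1 and +1 in capitals.
BRCA2 interval between uaTSS and gene TSS, chr13:32889575-32889616, plus strand: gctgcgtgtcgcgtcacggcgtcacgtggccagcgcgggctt
BRCA2 uaTSS, chr13:32889565-32889594, minus strand: gccgtgacgcgacacgcagCAcacgcacca
BRCA2 daTSS, chr13:32889907-32889936, minus strand: tgggtgggggttggcagagACaaaagggca

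The annotation puts another gene, ZAR1L, head to head with BRCA2, 145 nt upstream on the other strand. ZAR1L, a relative of the oocyte gene ZAR1, was at 0.0534 FPKM. No gene TSS was called for it inside the BRCA2 window. The antisense start called beside BRCA2 is listed as a uaTSS. It lies on the strand of ZAR1L, 71 nt upstream of the annotated BRCA2 start, against 145 nt for the annotated ZAR1L start. Whether it also starts transcripts of ZAR1L was not tested.

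PALB2 was called at position 23652636 on the minus strand of chromosome 16, 5 nt upstream of the canonical start. It had no antisense TSS of either kind. The gene DCTN5, a subunit of dynactin, was called on the other strand 198 nt upstream, at position 23652834. DCTN5 was at 42.2 FPKM, 3.56 times the PALB2 level. The stretch from PALB2 toward DCTN5 is shown because it holds the promoters of both genes, with the matches of an ETS core and a CCAAT box in capitals.
PALB2 toward DCTN5, chr16:23652637-23652810, minus strand: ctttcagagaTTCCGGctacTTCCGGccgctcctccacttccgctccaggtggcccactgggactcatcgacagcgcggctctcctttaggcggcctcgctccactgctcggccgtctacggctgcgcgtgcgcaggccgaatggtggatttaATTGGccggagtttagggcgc
DCTN5 gene TSS, chr16:23652814-23652843, plus strand: gaccgactgactctgacagGAtccggggct

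CHEK2 was called at position 29137801 on the minus strand of chromosome 22, in the untranslated part of exon 1, 7 nt inside the canonical transcript and 0 nt from another annotated start of the gene. Like PALB2 it had no antisense TSS and a divergent gene TSS. This was HSCB, a mitochondrial co-chaperone of iron-sulfur cluster assembly, called 208 nt upstream at position 29138009. HSCB was at 6.88 FPKM, 0.314 times the CHEK2 level. The pair was thus ordered the other way from PALB2 and DCTN5, with the damage response gene higher.
HSCB gene TSS, chr22:29137989-29138018, plus strand: cctcgactccccagccaatCAgcaacatta

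ATM was called at position 108093786 on the plus strand of chromosome 11, 8 nt upstream of the canonical start. It had both a uaTSS, 207 nt upstream, and a divergent gene TSS, 439 nt upstream, at NPAT. NPAT drives histone gene transcription at the entry into S phase, and it was at 7.63 FPKM, 2.06 times the ATM level. NPAT had a daTSS of its own in its intron 1, at 965 nt and percentile 83.3 of all daTSS distances, and no uaTSS. The 300 nt upstream of ATM reach past the uaTSS and most of the way to NPAT. Capitals in it mark the matches of the motifs described further on, and the last 12 bases before the start are a CHR element and an ETS core side by side.
ATM toward NPAT, chr11:108093486-108093785, plus strand: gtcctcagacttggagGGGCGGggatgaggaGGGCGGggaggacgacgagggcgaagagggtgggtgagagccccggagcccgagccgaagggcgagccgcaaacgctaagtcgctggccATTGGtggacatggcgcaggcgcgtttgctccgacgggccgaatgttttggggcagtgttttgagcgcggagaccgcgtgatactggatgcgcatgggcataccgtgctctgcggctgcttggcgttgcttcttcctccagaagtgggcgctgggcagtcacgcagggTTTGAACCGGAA
ATM uaTSS, chr11:108093570-108093599, minus strand: cgacttagcgtttgcggctCGcccttcggc
NPAT gene TSS, chr11:108093338-108093367, minus strand: tcagtgccgccactggaacCAggagatgcg

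ATR was called at position 142297620 on the minus strand of chromosome 3, 45 nt upstream of the canonical start. Its uaTSS lay 232 nt away, at percentile 58.0 of all uaTSS distances. No divergent gene was called or annotated within 1000 nt. The stretch between both starts is given with matches of a GC box and an ETS core in capitals.
ATR interval between uaTSS and gene TSS, chr3:142297621-142297851, minus strand: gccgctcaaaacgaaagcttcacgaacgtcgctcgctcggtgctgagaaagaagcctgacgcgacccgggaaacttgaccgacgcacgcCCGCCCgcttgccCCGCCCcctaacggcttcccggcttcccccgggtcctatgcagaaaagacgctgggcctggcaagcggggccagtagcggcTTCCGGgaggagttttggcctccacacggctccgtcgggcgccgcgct
ATR uaTSS, chr3:142297832-142297861, plus strand: aagctttcgttttgagcggCCagactctgc

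BARD1 stood apart from the other genes in where it was called. Its gene TSS, at position 215673740 on the minus strand of chromosome 2, was 667 nt downstream of the canonical start. The first exon is 272 nt long, so the call fell in intron 1, 581 nt from the nearest annotated start of the gene. Over all gene TSSs, 4.79% were more than 500 nt from the nearest annotated start on their strand, and the median was 10 nt. The values over all gene TSSs took the nearest start of any gene, and those of the members a start of the same gene. For the 6 members the median was 16.5 nt, and the other 5 were between 0 and 45 nt away. The uaTSS of BARD1, 166 nt upstream of the call, also lay in intron 1, 501 nt downstream of the canonical start. The calls hold 1 gene TSS for this locus, and none at the canonical start. The authors called a single gene TSS in each search window and merged overlapping windows of the same gene. A second call 667 nt away may thus not have been possible, and the reads at the canonical start are unknown.
BARD1 interval between uaTSS and gene TSS, chr2:215673741-215673905, minus strand: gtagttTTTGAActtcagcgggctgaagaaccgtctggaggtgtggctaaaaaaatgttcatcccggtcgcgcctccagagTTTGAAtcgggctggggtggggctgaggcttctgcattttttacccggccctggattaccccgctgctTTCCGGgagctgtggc
BARD1 uaTSS, chr2:215673886-215673915, plus strand: cgctgaagttcaaaaactaCCgtttcagtt

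**Figure D1:**
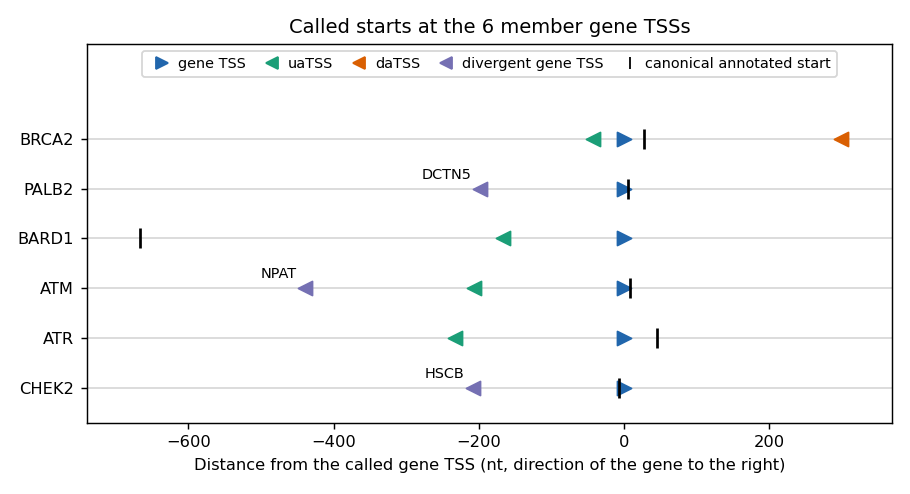
Called starts at the 6 member gene TSSs, in nt from the gene TSS at 0 with the gene running to the right; arrowheads give the direction of transcription and black ticks the canonical annotated start. The uaTSSs lie 43 to 232 nt upstream, the daTSS of BRCA2 lies 299 nt downstream, and the annotated start of BARD1 lies 667 nt upstream of its call.

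Counted together, 4 of the 6 member gene TSSs had a uaTSS beside 53.1% of all gene TSSs, and 1 of 6 had a daTSS beside 28.4%. A divergent gene TSS within 1000 nt upstream was present at 3 of 6 beside 11.5%. Among all gene TSSs with a divergent gene TSS, 16.2% had a uaTSS, and of the 3 such members only ATM had one. The distances of 198, 208 and 439 nt lay around the median of 267 nt over all 1198 gene TSSs of this kind. With 6 starts these counts are a description, and their difference from the background was not tested.

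Head-to-head arrangement was also counted from the annotation alone, which takes in the genes without a call. Another gene started on the other strand between 1000 nt upstream and 300 nt downstream at 6 of the 9 genes. The share was 20.3% over the 21617 listed genes with a canonical start, which were taken at any FPKM. The neighbours of the 6 genes were NBR2 at BRCA1, ZAR1L at BRCA2, DCTN5 at PALB2, SNHG31 at BARD1, NPAT at ATM and HSCB at CHEK2. NBR2, a long noncoding RNA whose start is 187 nt from that of BRCA1, was at 4.46 FPKM and had no called start. The search for gene TSSs was guided by mRNA entries of RefSeq, so noncoding RNA genes such as NBR2 and SNHG31 were not looked for. BRIP1, ATR and CHEK1 had no such neighbour.

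The base composition around the called starts fell into a larger and a smaller set. BRCA2, PALB2, ATM and ATR had GC contents of 63.3%, 67.5%, 63.9% and 66.7% within 250 nt, inside the middle part of all gene TSSs (quartiles 60.5% and 72.3%, median 66.7%). BARD1 was at 49.1%, percentile 3.29, and CHEK2 at 55.9%, percentile 11.3. The annotated start of BARD1, 667 nt upstream, was at 71.5%, so the low value belongs to the intron in which its call lay. The ratio of observed to expected CpG dinucleotides was lowest at the same starts, 0.639 at CHEK2 and 0.696 at BARD1, against 0.810 to 0.918 at the other 4 and a median of 0.831 over all gene TSSs.

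**Figure D2:**
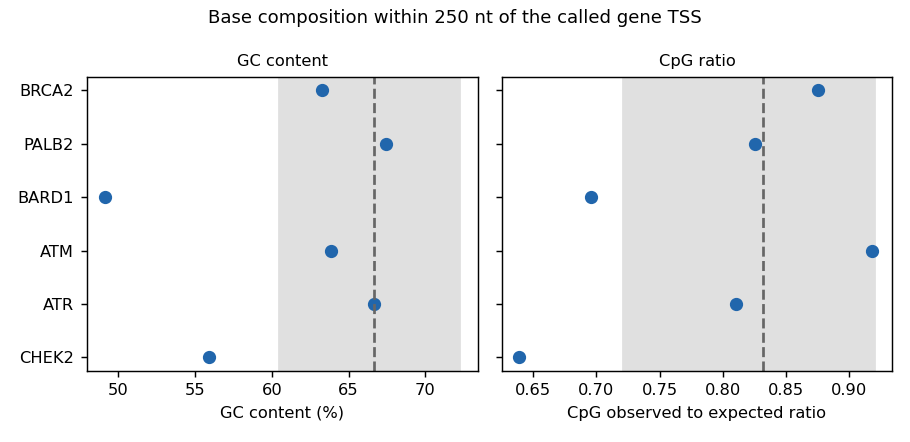
GC content (left, percent) and CpG observed to expected ratio (right) within 250 nt of the 6 called gene TSSs, 1 point per gene; the grey band spans the quartiles of all 10391 gene TSSs and the dashed line is their median. BARD1 and CHEK2 lie below the band in both, and the other 4 genes lie inside it.

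Short motifs of factors that act at housekeeping and cell cycle promoters were searched on both strands from 250 nt upstream to 50 nt downstream of each call. The ETS core, CCGGAA, is the centre of sites bound by ETS factors such as GABPA, and it was present at 5 of 6 member starts, all but CHEK2, beside 30.9% of all gene TSSs. At ATM it occupied the 6 bases from -6 to -1, and at BARD1 those from -16 to -11. ATR had it at -48 to -43 and again at 2 to 7, just after the start. BRCA2 had it at -59 to -54, and PALB2 had 2 copies, at -164 to -159 and at -154 to -149, nearer to DCTN5 than to PALB2. In the same window around the annotated starts, an ETS core was present at BRCA2, PALB2, ATM and ATR. It was absent there at BARD1, BRCA1, BRIP1, CHEK1 and CHEK2, so the BARD1 match belongs to the intron in which its call lay.

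The CCAAT box, bound by NF-Y, was present at 4 of 6 beside 35.3%. CHEK2 had 3 copies, at -206 to -202, -77 to -73 and -47 to -43, the first of them directly before the HSCB start. ATM had 1 at -180 to -176 and PALB2 1 at -21 to -17, while in BARD1 it fell after the start, at 3 to 7. The CHR element, TTTGAA, through which the DREAM complex represses cell cycle genes in resting cells, was present at BARD1 (2 copies) and at ATM (1 copy, at -12 to -7), which is 2 of 6 beside 8.49%. BARD1 had neither motif around its annotated start. Of the genes without a call, BRCA1 and BRIP1 had a CCAAT box there, BRIP1 had a CHR element and CHEK1 had neither.

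The GC box core, GGGCGG, to which Sp1 family factors bind, was present at BRCA2, BARD1, ATR and CHEK2, which is 4 of 6 beside 72.4%. From 100 nt upstream to 50 nt downstream it was at 1 of 6, beside 54.8%, and from 500 nt upstream to 100 nt downstream at 5 of 6, beside 81.9%. Both copies in capitals in the ATM sequence lie outside the 250 nt searched. The other motifs had no match at any member start. These were the CRE palindrome TGACGTCA (3.1% of all gene TSSs), NRF1 (2.33%), the TATA box as TATAAA (4.57%) and E2F (5.5%). E2F was counted as any of TTTCCCGC or TTTGGCGC or TTTCGCGC or TTTGCCGC. NRF1 was counted only as the exact 10 letters GCGCA followed by TGCGC, and variants of that site were not searched. A match is a run of letters and not a bound site, and the absence of a match says only that these letters are not in this window.

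**Figure D3:**
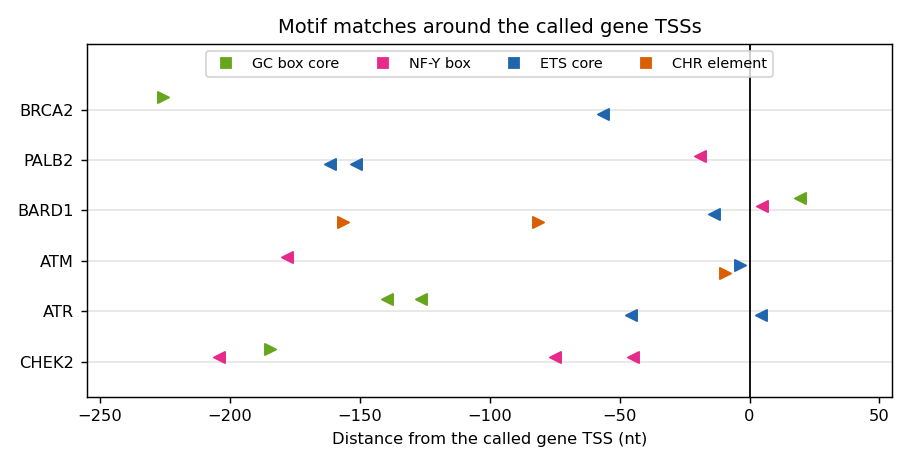
Positions of motif matches from 250 nt upstream to 50 nt downstream of the 6 called gene TSSs, in nt, with arrowheads to the right for the strand of the gene and to the left for the other strand. ETS cores (blue) are present in 5 of the 6 genes and lie no farther upstream than -59 in 4 of them; CHEK2 has 3 CCAAT boxes (labelled NF-Y box) and no ETS core.

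The wider pathway was described through 4 lists of genes that act with the members. All genes of all 4 lists were at 1 FPKM or more, beside 46.9% of the listed genes. The 36 genes of homologous recombination and Fanconi anemia had a median of 14.5 FPKM, at percentile 76.7. The highest was SHFM1, the small acidic partner of BRCA2, at 194 FPKM, followed by UBE2T, the ubiquitin-conjugating enzyme of the Fanconi pathway, at 130. The lowest were FANCB, a subunit of the Fanconi core complex, at 3.14 and RAD52, a strand annealing protein, at 3.46, both above BRCA2. A gene TSS was called for 32 of the 36, beside 79.9% of all listed genes of known strand at 1 FPKM or more, and it was missing for FANCC (4.84 FPKM), RAD51C (33.6) and the subunits RPA3 (30.5) and RPA2 (41.1) of the single-strand binding protein RPA. Of the 32 genes, 16 had a uaTSS, 7 a daTSS and 7 a divergent gene TSS, beside 53.1%, 28.4% and 11.5% of all gene TSSs. Here and in the lists that follow a gene with several called starts was counted once, and the differences from these shares were not tested.

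The 10 genes of the BRCA1-A complex and of chromatin marking at breaks had the highest median of the 4 lists, 23.5 FPKM. BABAM1, a subunit of the complex, was at 90.3 FPKM, and H2AFX, the histone variant phosphorylated at breaks, at 87.3. The ubiquitin ligase RNF8 was at 4.55, and FAM175A, the scaffold of the complex, at 5.54. A start was called for 8 genes, beside the same 79.9%, and not for UIMC1, the ubiquitin-binding subunit, at 6.997 FPKM. MDC1 was not assigned to a strand and was left out of this count. Of the 8 genes, 5 had a uaTSS (53.1% of all gene TSSs), 2 a daTSS (28.4%) and 2 a divergent gene TSS (11.5%).

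The 17 genes of checkpoint signalling had a median of 14.4 FPKM. TIMELESS, a component of the replication fork protection complex, was at 73.4 FPKM and KAT5, the acetyltransferase that activates ATM, at 60.7. CLSPN, the adaptor between ATR and CHEK1, was at 4.47 and PPM1D, a phosphatase that ends the signal, at 5.71. A start was called for 15 genes (79.9% of listed genes at 1 FPKM or more) and was missing for HUS1 (10.8 FPKM) and RAD1 (11.4), which are subunits of the same clamp loaded at damaged DNA. Of the 15 genes, 11 had a uaTSS (beside 53.1%), 5 a daTSS (beside 28.4%) and 1, RAD17, a divergent gene TSS (beside 11.5%).

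The 9 genes of end joining, the pathway that competes with recombination, had a median of 18.6 FPKM and a called start in every case, beside 79.9% of listed genes at this minimum of 1 FPKM. The Ku subunits XRCC6 and XRCC5 were at 199 and 162 FPKM, above all 9 BRCA and damage response genes. POLQ, the polymerase of the alternative pathway, and NHEJ1 were the lowest, at 4.33 and 4.95. Of these genes 5 had a uaTSS, 3 a daTSS and 4 a divergent gene TSS, against shares of 53.1%, 28.4% and 11.5% over all gene TSSs. The members' own median of 11.8 FPKM was below the medians of the 4 lists, and with 1 value per gene that order was not tested.

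**Figure D4:**
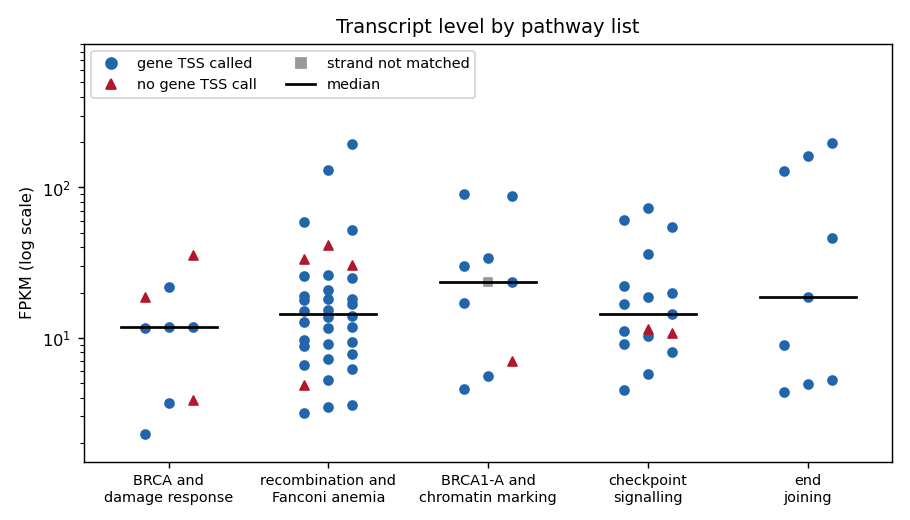
FPKM on a log scale for each gene of the members and the 4 pathway lists, 1 point per gene, with the median of each list as a bar. Blue circles have a called gene TSS, red triangles have none and the grey square (MDC1) has no matched strand; the medians run from 11.8 for the members to 23.5 for the BRCA1-A and chromatin marking list.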

How the data were processed

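Positions of gene TSSs, uaTSSs and daTSSs (hg19) and a table of FPKM values were used as deposited by the authors. The authors removed low-quality reads and adapters (cutadapt 1.2.1), aligned Start-seq reads with Bowtie 0.12.8 and called gene TSSs in windows around RefSeq mRNA starts where a position met a read threshold, choosing between the position with most 5' ends in the window and that in its densest bin by closeness to the RefSeq start. Antisense calls were made up to 1000 nt upstream and 2000 nt downstream, and daTSSs that could be miscalled starts were filtered out. RNA-seq alignments (TopHat2 2.0.4, strand-specific libraries) were deduplicated and merged over 3 replicates, and the deposited FPKM values came from Cufflinks 2.2.1 without per-sample columns. Whether counting used strand and how shared reads were divided are not given in the sources used here. Depth per sample is unknown from these files, which limits the precision of every value.

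Sequence and annotation were read from GRCh37 with GENCODE release annotation lifted to it, using Python 3.11.15, pandas 2.3.3 and numpy 2.4.6. Of the 26175 listed symbols, 23313 were matched to a strand. Canonical starts are those of the GENCODE canonical transcript. A percentile is the share of listed genes (or calls) with a lower value. GC, CpG and motif functions were tested on simulated data. The members, gene lists and motifs were chosen with earlier results of these data known. Genes named beyond the members were divergent partners, the 2 highest and 2 lowest genes of each list, list genes without a call, and cell markers. Neighbours of uncalled or annotated starts, RPA1, RAD9A and RAD17 were named after their values were seen. No comparison between groups was possible with 1 condition. Columns of per-sample values left unused numbered 0.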

Additional observations from a re-analysis of the deposited data

How the results depend on the processing

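Of 42 alternatives, 32 left the result as it was (for counts, within 1.5 times) and 10 moved it. A change of direction was not assessed. Restricting the median FPKM to genes at 1 FPKM or more could change nothing, because all members and list genes were already at that level. The members' median of 11.8 FPKM became 9.77 or 10.1 as a back-transformed mean of log2(FPKM + 0.1) or log2(FPKM + 1). Their median percentile of 74.1 became 62.9 among genes above 0 FPKM, 44.7 among genes at 1 FPKM or more and 46.8 among genes with a called gene TSS, so the standing of these genes depends on the set they are ranked in. Median GC content, 63.6% within 250 nt, was 65.4% within 100 nt and 58.8% within 500 nt. The median CpG ratio, 0.818, was 0.877 and 0.752. The GC box core was present at 1 of 6 starts from -100 to +50, beside 54.8% of all gene TSSs, in place of 4 of 6. The count of called starts was 6 with a narrower and with a wider locus. The counts of uaTSSs and daTSSs were the same when any call in the search window was taken, and that of daTSSs also up to 1000 nt. Divergent starts within 300 nt were 2 in place of 3.

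No paired analysis was possible because the result comes from no test: expression has 1 merged value per gene and the calls come from 1 Start-seq replicate. For the same reason no replicate was left out. The call lists do not show reads below the threshold. With 6 starts, each count above can change with 1 call.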

Other observations

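Members of 1 protein complex differed in whether a start was called. Of the subunits of RPA, RPA1 had a called start at 59.2 FPKM, and RPA2 and RPA3 had none at 41.1 and 30.5 FPKM. Of the checkpoint clamp, RAD9A had a called start with a uaTSS at 19.9 FPKM, and HUS1 and RAD1 had none at 10.8 and 11.4 FPKM. RAD17, which loads the clamp, had 2 called starts at 18.7 FPKM. BRCA1 and BARD1 were likewise split, BARD1 having a call inside intron 1 and BRCA1 none. All of these genes were at 10 FPKM or more, where 87.9% of listed genes of known strand had a call. They were chosen after their values were seen, and the cause of a missing call was not tested.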
